A study of Mus musculus with 8 samples.

Results

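The genes described here are 10 mouse genes of iron uptake, storage and export: Tfrc, Slc11a2, Slc39a8, Slc39a14, Slc40a1, Fth1, Ftl1, Ncoa4, Cp and Scara5. They were taken by symbol from a table of 18768 genes. All 10 were in it, and all 10 were among the 15153 genes that passed the filter on low counts and were tested. RNA was sequenced from 4 fibrosarcoma cell lines, each grown in culture from a tumor that the carcinogen methylcholanthrene had induced under the skin of a mouse. Lines MC010 and MC011 came from tumors of mice labelled IRF8 KO, which lack the transcription factor IRF8 by design, and lines MC654 and MC659 from tumors of mice labelled WT. Each line had 2 libraries, so 4 libraries stood against 4 but only 2 tumors against 2, and the age and sex of the mice and the culture or passage behind each library were not given in the sources used here. No iron, iron chelator or other agent was given to the cells in culture, as far as the labels say.

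Cells take up most of their iron bound to transferrin, through the receptor encoded by Tfrc, and release it from endosomes through the transporter encoded by Slc11a2. Iron that is not used is stored in ferritin, a hollow shell of heavy (Fth1) and light (Ftl1) chains. It leaves the cell through ferroportin (Slc40a1), the exporter that cells are known to use for iron. The amount of these proteins is known to be set mostly after transcription: 2 RNA-binding proteins, Aco1 and Ireb2, bind short hairpins called iron-responsive elements when iron is scarce, which blocks translation where the hairpin lies in the 5′ UTR and stabilizes the RNA where it lies in the 3′ UTR. In tumor cells these genes are studied because free iron feeds the lipid peroxidation of ferroptosis, the form of cell death for which the 4 lines were compared.

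The hairpins are shown because they are the letters through which this control acts. RNA counts can reflect it through the stability of Tfrc RNA, but not through translation. They were searched in the UTRs of the protein-coding transcripts of GENCODE M21 (GRCm38) as a bulged C, 5 bases, the loop CAGTGN whose last base is not G, and 5 bases that pair with the first 5, with G-T pairs allowed and 5 flanking bases printed on each side. The match was found in 4 of the 10 genes. Tfrc held 4 of them in its 3′ UTR, at chr16:32631220-32631246, chr16:32631599-32631625, chr16:32631664-32631690 and chr16:32631711-32631737 on the plus strand. Fth1 held 1 at chr19:9982733-9982759 on the plus strand, Ftl1 at chr7:45459780-45459806 on the minus strand and Slc40a1 at chr1:45925466-45925492 on the minus strand, all 3 in the 5′ UTR. Each is 27 bases long and is given 5′ to 3′ on the strand of the gene, with the loop in capitals.
Tfrc hairpin 1: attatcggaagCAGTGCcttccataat
Tfrc hairpin 2: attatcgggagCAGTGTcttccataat
Tfrc hairpin 3: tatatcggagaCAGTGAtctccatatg
Tfrc hairpin 4: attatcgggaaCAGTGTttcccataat
Fth1 hairpin: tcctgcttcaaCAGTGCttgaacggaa
Ftl1 hairpin: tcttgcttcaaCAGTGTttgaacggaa
Slc40a1 hairpin: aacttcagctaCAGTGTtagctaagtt
Of 13894 genes scanned, 19 (0.137%) held such a match in a 5′ UTR and 89 (0.641%) in a 3′ UTR. A match is a description of the letters, and none was found in the UTRs of the other 6 genes with these letters. The pattern is strict and does not find every element, as Slc11a2 is known to have a 3′ UTR form with an iron-responsive element. Aco1 and Ireb2 are given for their role, chosen after their values were seen. Their log2 fold changes between the labels were -0.20 ± 0.069 (SE, adjusted p = 0.0501) and -0.24 ± 0.089 (adjusted p = 0.0688) from edgeR, so neither was called.

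The libraries held 74063616 to 116206078 counts on genes. Irf8, the gene the labels name, had 442 and 347 counts in MC010, 32 and 10 in MC011, 1 and 2 in MC654, and 1 and 0 in MC659. The RNA level thus ran against the labels. The study genotyped the lines by PCR on genomic DNA and reported MC654 and MC659 as WT and MC010 and MC011 as KO. Counts over a whole gene cannot tell an intact transcript from a truncated one of a deleted allele, so they do not settle the genotype. Irf8 also overlaps the protein-coding gene Gm20388 on its own strand, and the effect of this on its counts was not tested. Directions below are given by label. Mesenchymal markers such as Vim and Sparc were high in all 8 libraries, with a summed level of 11100 to 11900 CPM (counts relative to library size, scaled by edgeR's TMM method) in the libraries labelled IRF8 KO and 15900 to 17600 in those labelled WT. The lower sum rested on fibronectin (Fn1), without which the sums were 9280 to 10800 and 8140 to 9460 CPM. Every IRF8 KO library lay above every WT library in Vim, Pdgfra and S100a4, and below every WT library in Fn1 and Col1a2. Col1a2 stood at 238 to 802 CPM against 876 to 1270 CPM. In Col1a1, Col3a1, Pdgfrb, Thy1 and Sparc the groups overlapped. Of 10 macrophage markers, a cell type rich in Slc40a1, 4 were in the table, with a summed level of 6.48 to 7.68 CPM and 9.79 to 11.5 CPM (0.830 to 1.33 and 1.15 to 1.96 CPM without Cd68), and Adgre1, Itgam, Lyz2, Tyrobp, Cd163 and Aif1 were not analysed here. Every IRF8 KO library lay below every WT library in Cd68 and Csf1r, with Csf1r at means of 0.349 and 1.34 CPM. Mrc1 went the other way, at means of 0.648 and 0.151 CPM. In Ptprc, which marks leukocytes, the groups overlapped, with a mean of at most 0.167 CPM in a line. Endothelial and erythroid markers summed to at most 0.912 and 0.871 CPM per library.

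The label comparison asks which of these genes differ between lines from IRF8 KO and WT tumors. A gene was called at an adjusted p under 0.05 and a log2 fold change over 0.59 in size, by the quasi-likelihood test of edgeR, with p-values adjusted over all 15153 genes by the Benjamini-Hochberg method. In this comparison 3 of the 10 genes were higher in the lines labelled IRF8 KO: Scara5, a receptor for ferritin, Cp, the copper oxidase ceruloplasmin, and Slc39a8, a zinc and iron importer. None of the 10 was called lower by edgeR or by DESeq2, and 0 were lower at an unadjusted p under 0.05. Of all genes tested, 13.7% were called higher and 8.72% lower by edgeR. No share of all genes is given for DESeq2 or for the unadjusted p, so those counts are not read as results about the 10 genes. Tfrc and Slc11a2 were also higher at an adjusted p under 0.05, below the threshold on the fold change, and on the adjusted p alone 5 of the 10 genes were higher and 0 lower, where 20.8% of all genes were higher and 16.7% lower. For these same 5 genes, every library labelled IRF8 KO lay above every library labelled WT, as it did for 22.1% of all genes, while 20.5% of all genes and none of the 10 showed the opposite. The median log2 fold change of the 10 genes was 0.38, against 0.02 over all genes tested. These are bulk libraries, in which more cells that express a gene and more RNA per cell cannot be told apart.

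**Figure D1:**
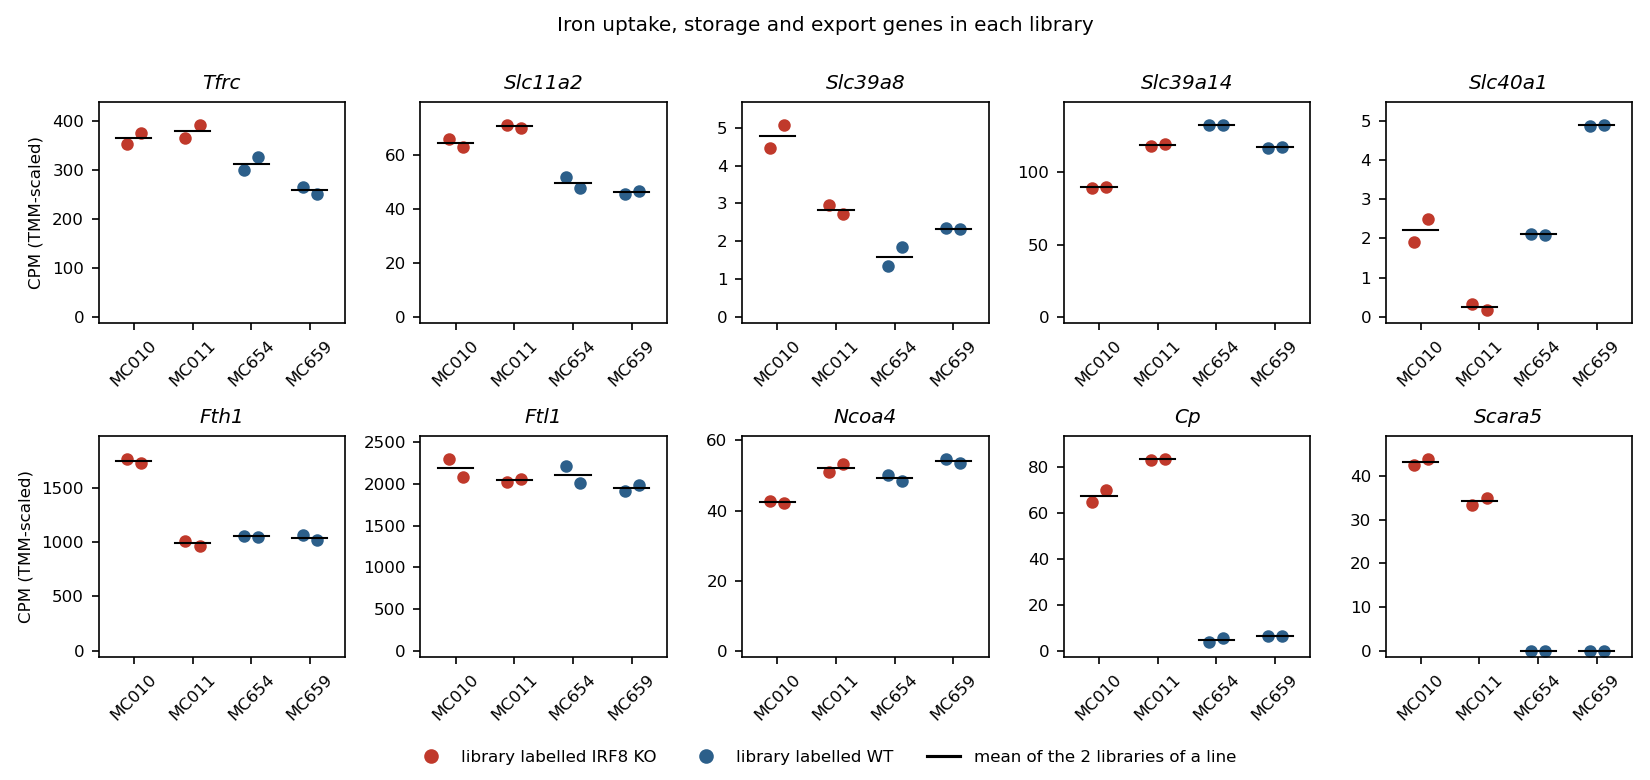
Level of each of the 10 genes in each of the 8 libraries, in CPM on axes that start near 0, with points for libraries and a bar for the mean of the 2 libraries of a line. Scara5 and Cp separate the labels widely, with Cp at 65.0 to 83.8 CPM against 3.97 to 6.53 CPM, while Slc40a1 and Fth1 separate single lines.

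Each line stems from 1 tumor, so the spread that bears on the label is the spread between tumors, and there are only 2 tumors per label. When the 2 libraries of every line were summed, edgeR called 0 genes in the whole table (3658 had an unadjusted p under 0.05), and the lowest adjusted p among the 10 genes was 0.0513, for Cp and Scara5. An exact two-sided permutation test gave p = 0.0286, the smallest that 4 libraries against 4 allow, for Tfrc, Slc11a2, Slc39a8, Cp and Scara5, and p = 0.333, the smallest that 2 lines against 2 allow, when each line counted once.

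Uptake of iron bound to transferrin was represented by Tfrc and Slc11a2. Tfrc (ENSMUSG00000022797, chromosome 16, 32608920 to 32632794) had 353 and 376 CPM in MC010, 366 and 393 in MC011, 300 and 327 in MC654 and 265 and 252 in MC659. The groups did not overlap, and MC654 lay closest to the IRF8 KO lines. The means were 372 ± 16.9 CPM (SD, n = 4) and 286 ± 34.0 CPM (SD, n = 4), and the log2 fold change was 0.38 ± 0.088 (SE, adjusted p = 0.0112, edgeR). The 2 IRF8 KO lines did not differ in Tfrc beyond their spread, with a log2 difference of -0.06 and a 95% interval of -0.17 to 0.06. MC654 lay above MC659 by 0.28 ± 0.055 on the log2 scale (adjusted p = 0.00262, edgeR), so part of the range of Tfrc lay within the WT label. With MC659 left out, the adjusted p was 0.101, at a log2 fold change of 0.24. The adjusted p was also above 0.05 in limma-voom with a random term for the line (0.11) and in the sums per line (0.241).

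Slc11a2 encodes DMT1, which carries ferrous iron across the membrane of endosomes. The gene (ENSMUSG00000023030, chromosome 15, 100387898 to 100425072) had 65.7 and 62.7 CPM in MC010, 71.1 and 69.8 in MC011, 51.7 and 47.6 in MC654 and 45.4 and 46.6 in MC659. All 4 IRF8 KO libraries lay above all 4 WT libraries. Means were 67.3 ± 3.82 CPM and 47.8 ± 2.72 CPM (SD, n = 4 each), a log2 fold change of 0.49 ± 0.066 (SE, adjusted p = 8.42e-04, edgeR) that stayed under the threshold of 0.59. The adjusted p stayed under 0.05 with each library or line left out, and of the 7 other alternatives only the sums per line took it above 0.05 (0.141).

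Uptake of iron outside transferrin was represented by Slc39a8, Slc39a14 and Scara5. Slc39a8 encodes ZIP8, a carrier of zinc, manganese and iron. The gene (ENSMUSG00000053897, chromosome 3, 135825279 to 135888572) was low in every library, at 4.47 and 5.09 CPM in MC010, 2.96 and 2.71 in MC011, 1.34 and 1.84 in MC654 and 2.36 and 2.31 in MC659. MC010 was set apart from the other 3 lines, and the lowest MC011 library lay close above the highest MC659 library. The mean of the IRF8 KO libraries was 1.94-fold that of the WT libraries as fitted, with a log2 fold change of 0.96 ± 0.28 (SE, adjusted p = 0.0291, edgeR). The call was lost when 1 library was left out in 5 of 8 cases: MC010 replicate 1 (adjusted p = 0.0680), MC010 replicate 2 (0.0708), MC654 replicate 1 (0.0714), MC654 replicate 2 (0.0781) or MC659 replicate 2 (0.0507). It was also lost with line MC010 (0.0865), MC654 (0.208) or MC659 (0.0757) left out and in limma-voom with a random term for the line (0.180).

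Slc39a14 encodes ZIP14, the closest relative of ZIP8, and was not called between the labels. The gene (ENSMUSG00000022094, chromosome 14, 70303469 to 70351425) had 89.4 and 90.0 CPM in MC010, 118 and 120 in MC011, 133 and 133 in MC654 and 117 and 117 in MC659. The label groups overlapped, with a log2 fold change of -0.26 ± 0.12 (SE, adjusted p = 0.118, edgeR). MC010 was the lowest line, 0.48 ± 0.039 below the WT lines on the log2 scale (adjusted p = 2.05e-08), while MC011 differed from them by -0.07, with a 95% interval of -0.15 to 0.01. Of the 2 ZIP carriers, MC010 thus held the highest Slc39a8 and the lowest Slc39a14 of the 4 lines.

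Scara5 is a scavenger receptor that binds ferritin made mostly of light chains and takes it up without transferrin. The gene (ENSMUSG00000022032, chromosome 14, 65666403 to 65764826) had 4856 and 3229 counts in MC010 and 3210 and 2772 in MC011, or 42.5, 43.9, 33.3 and 35.1 CPM. It had 0 and 0 counts in MC654 and 0 and 1 in MC659. No other of the 10 genes was read in all libraries of one label and in almost none of the other. The 14067 counts of the IRF8 KO libraries against 1 count of the WT libraries gave a ratio of 13420 after scaling, with an exact 95% counting interval of 2409 to 530200. Against a floor of 3 counts per library, the level of Scara5 in MC010 was at least 1201-fold higher than in MC654, whose libraries were both at 0, and that in MC011 at least 951-fold higher. The adjusted p was 1.14e-06 (edgeR). It was called with each library or line left out, but not in the sums per line (0.0513).

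Storage in ferritin was represented by Fth1, Ftl1 and Ncoa4. Fth1, the chain that oxidizes iron for storage, had a high level in 1 line only. The gene (ENSMUSG00000024661, chromosome 19, 9982703 to 9985092) had 1764 and 1722 CPM in MC010, 1012 and 967 in MC011, 1053 and 1050 in MC654 and 1063 and 1020 in MC659. The libraries of MC010 stood above the 6 others, which spanned 967 to 1063 CPM. The label comparison gave a log2 fold change of 0.38 ± 0.21 (SE, adjusted p = 0.182, edgeR), which became -0.10 (adjusted p = 0.0707) without MC010 and 0.73 (adjusted p = 3.6e-07) without MC011. MC010 was 1.76-fold above MC011, a log2 difference of 0.82 ± 0.042 (SE, adjusted p = 1.71e-10), and 1.67-fold above the WT lines. No difference among the other 3 lines passed the test. MC011 differed from MC654 by -0.09 on the log2 scale (95% interval -0.18 to 0.003, adjusted p = 0.0873) and from MC659 by -0.07 (-0.16 to 0.02, adjusted p = 0.146), and MC654 differed from MC659 by 0.01 (-0.08 to 0.10, adjusted p = 0.886).

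Ftl1, the light chain, had a similar level in all 4 lines. The gene (ENSMUSG00000050708, chromosome 7, 45457944 to 45459884) had 2298 and 2078 CPM in MC010, 2025 and 2060 in MC011, 2208 and 2009 in MC654 and 1908 and 1982 in MC659. The groups overlapped, and the log2 fold change of 0.06 ± 0.068 (SE, adjusted p = 0.512, edgeR) had a 95% interval of -0.09 to 0.22. The count of Fth1 relative to Ftl1 was 0.77 and 0.83 in MC010, against 0.470 to 0.557 in the 6 other libraries. Together both chains took 0.297% to 0.400% of all counts on genes. The table also held 4 ferritin copies, Ftl2, Ftl1-ps1, Ftl1-ps2 and Fth-ps2, which could share reads with their parent genes. They had 1 to 282 counts per library, at most 0.117% of the parent's counts.

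**Figure D2:**
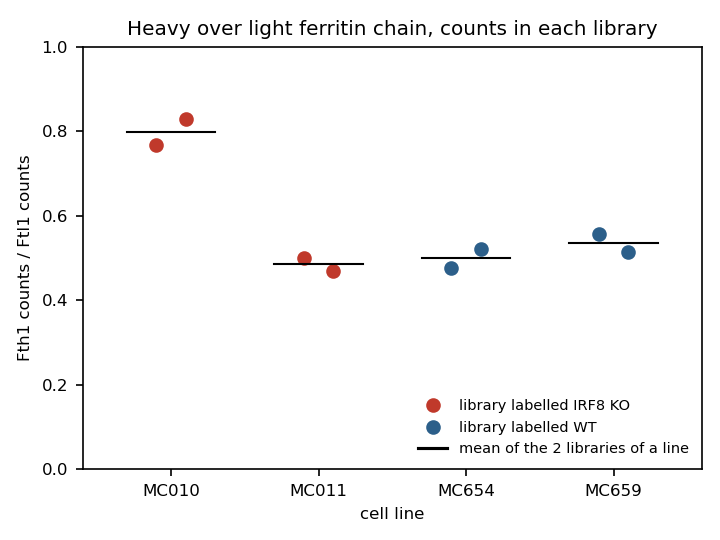
Fth1 counts divided by Ftl1 counts in each library, by cell line, with points for libraries and a bar for the mean of each line. The ratio is near 0.80 in MC010 and between 0.470 and 0.557 in the libraries of the other 3 lines.

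Ncoa4 is the receptor that takes ferritin to the lysosome, where its iron is released. The gene (ENSMUSG00000056234, chromosome 14, 32159865 to 32179855) had 42.7 and 42.2 CPM in MC010, 51.0 and 53.1 in MC011, 50.05 and 48.4 in MC654 and 54.7 and 53.6 in MC659. The label groups overlapped (log2 fold change -0.13 ± 0.093, SE, adjusted p = 0.311, edgeR). MC010 was the lowest line, 0.28 ± 0.047 below the WT lines on the log2 scale (adjusted p = 6.03e-05) and under the threshold on the fold change. MC010, the line with the most Fth1, thus had the least Ncoa4 RNA, while MC011 differed from the WT lines in Ncoa4 by 0.01, with a 95% interval of -0.09 to 0.11.

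Export was represented by Slc40a1 and Cp. Slc40a1, which encodes ferroportin, was low in all libraries and lowest in MC011. The gene (ENSMUSG00000025993, chromosome 1, 45908068 to 45926523) had 219 and 184 counts in MC010, 31 and 14 in MC011, 177 and 178 in MC654 and 429 and 441 in MC659, which is 1.91 and 2.503 CPM, 0.322 and 0.177 CPM, 2.12 and 2.09 CPM, and 4.86 and 4.90 CPM. The label groups overlapped, since the libraries of MC010 lay on both sides of those of MC654. The label comparison gave a log2 fold change of -1.51 ± 0.81 (SE, adjusted p = 0.181, edgeR), and -3.80 (adjusted p = 9.36e-04) without MC010. Ordered by level, MC659 stood first, MC010 and MC654 did not differ beyond their spread (log2 difference 0.06, 95% interval -0.37 to 0.48), and MC011 stood last. MC011 was 12.5-fold below the WT lines, a log2 difference of -3.65 ± 0.24 (SE, adjusted p = 2.19e-09). The WT lines also differed from each other, MC659 being 2.32-fold above MC654 (log2 difference of MC654 from MC659 -1.21 ± 0.19, adjusted p = 4.49e-04).

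Cp encodes ceruloplasmin, which oxidizes the iron that ferroportin exports so that transferrin can bind it. The gene (ENSMUSG00000003617, chromosome 3, 19957054 to 20009145) had 65.0 and 70.1 CPM in MC010, 83.3 and 83.8 in MC011, 3.97 and 5.55 in MC654 and 6.53 and 6.48 in MC659. The lowest IRF8 KO library thus stood far above the highest WT library. Means were 75.6 ± 9.46 CPM and 5.63 ± 1.20 CPM (SD, n = 4 each), a 13.4-fold difference as fitted, with a log2 fold change of 3.75 ± 0.18 (SE, adjusted p = 7.80e-06, edgeR). Within the labels, MC010 and MC011 differed by -0.31 ± 0.083 and MC654 and MC659 by -0.45 ± 0.11 on the log2 scale, both at an adjusted p under 0.05 (0.00464 and 0.0152) and below the threshold on the fold change. Cp was called with each library or line left out, and not in the sums per line (0.0513). In MC011 the level of Cp was therefore the highest of the 4 lines and that of Slc40a1, with which it acts, the lowest.

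The lines were also compared one by one, in a fit with 1 group per line whose p-values measure the spread between the 2 libraries of a line. MC010 and MC011 differed in 3 of the 10 genes, Slc40a1 (log2 difference 3.10), Fth1 (0.82) and Slc39a8 (0.75), all higher in MC010, where 31.6% of all genes were called. MC654 and MC659 differed in 1, Slc40a1, where 4.95% of all genes were called. Against the WT lines, MC010 was called in 4 genes, Slc39a8 (1.31 ± 0.14), Fth1 (0.74 ± 0.036), Cp (3.6 ± 0.078) and Scara5, where 37.1% of all genes were called. MC011 was called in 3, Slc40a1 (-3.65 ± 0.24), Cp (3.91 ± 0.078) and Scara5, where 30.7% of all genes were called. The last 2 comparisons share the WT libraries, and their values are therefore given only side by side. Of the 10 genes, Slc39a8 was 0.56 ± 0.15 above the WT lines in MC011 (adjusted p = 0.00419), just below the threshold on the fold change. On the adjusted p alone, 8 of the 10 genes differed between MC010 and MC011, where 63% of all genes did, and 4 between MC654 and MC659, where 14.5% did. Against the WT lines it was 10 for MC010 and 6 for MC011, where 70.6% and 65.3% of all genes passed.

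**Figure D3:**
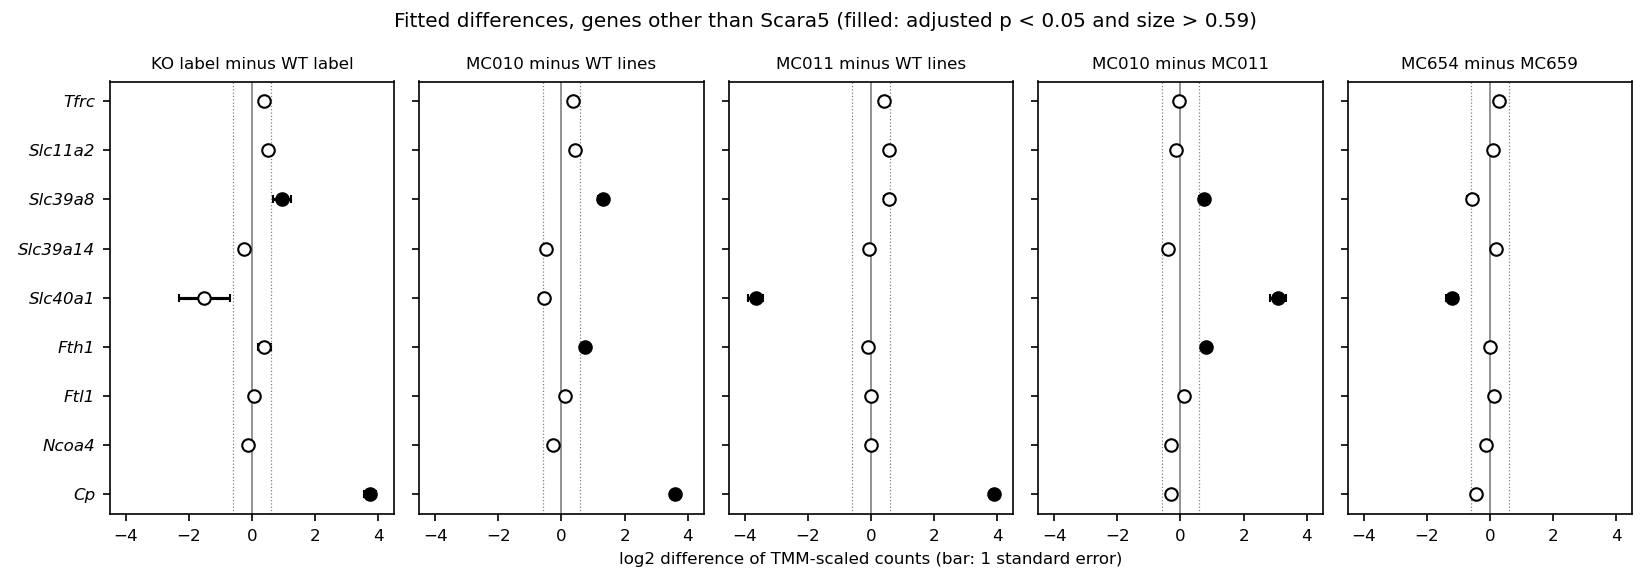
Fitted log2 differences with 1 standard error for 9 of the 10 genes in 5 comparisons, with filled points for called genes and dotted lines at -0.59 and 0.59. Scara5 is left out because its fitted value against libraries at 0 depends on the fit's prior count. Cp stands at 3.75 in the label comparison and at 3.6 and 3.91 in MC010 and MC011 against the WT lines, while Slc40a1 stands at -3.65 in MC011 and -0.55 in MC010.

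Levels can be compared between genes only per length. Per kilobase of all exons of the gene in GENCODE M21 and relative to library size (RPKM), Ftl1 was highest at a mean of 1545 over the 8 libraries (1424 to 1715), followed by Fth1 at 348 (279 to 509) and Tfrc at 53.2 (40.7 to 63.6). These 3 ranges did not overlap. Slc39a14 at 10.9 (8.47 to 12.6) and Slc11a2 at 9.06 (7.15 to 11.2) overlapped, with Ncoa4 below them at a mean of 5.28. Cp and Scara5 ran from among the lowest of the 10 genes in the WT lines, at 0.498 RPKM in MC654 and 0.680 in MC659 for Cp, to the level of Ncoa4 and above in the IRF8 KO lines, at 7.06 RPKM in MC010 and 8.73 in MC011 for Cp and 7.09 and 5.61 for Scara5. Slc39a8 at 0.376 and Slc40a1 at 0.263 were the lowest by their means over the 8 libraries. The order of these means was the same with the length of the coding transcript in place of all exons.

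**Figure D4:**
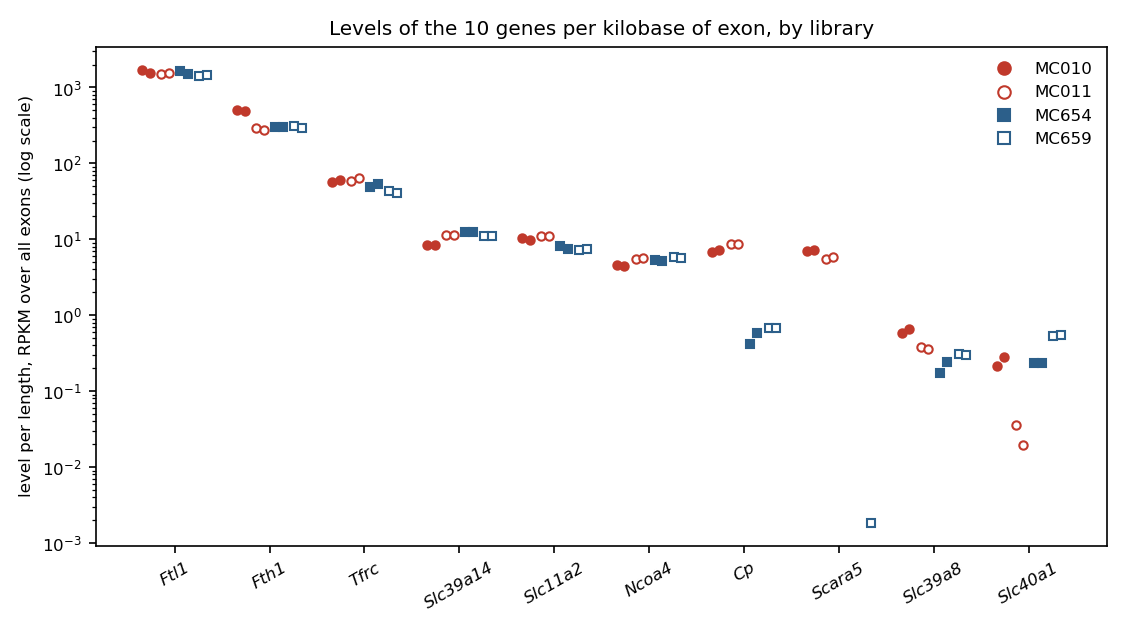
Level per length of each gene in each library, in RPKM over all exons on a log axis, with circles for the lines labelled IRF8 KO and squares for those labelled WT. The 3 libraries in which Scara5 was at 0 cannot be drawn on a log axis. Ferritin chains and Tfrc lie at 40.7 RPKM or more in every library, and Slc40a1 of MC011 lies lowest apart from the single count of Scara5 in MC659.

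For 4 of the genes, the genes most alike over the 8 libraries were found by Pearson's r of log2 CPM, among genes tested with a mean log2 CPM of at least 1. The 8 points are 4 lines with 2 libraries each, so the values only describe the pattern. Cp was most like Pnrc1 and Cyb5a (r = 0.998 each) and Sema3c (0.997), which had 45.8 and 59.5 CPM in MC010 and MC011 and 1.75 and 1.91 CPM in MC654 and MC659. Scara5 was most like Kif3b, Slit3 and Ptpn22 (0.998 each). Slit3, a secreted guidance protein, had 164 and 122 CPM in the IRF8 KO lines and 4.77 and 5.78 CPM in the WT lines. Slc40a1 was most like Dixdc1, Maml2 and Mtus1 (0.992 each), all lowest in MC011, Mtus1 at 12 CPM against 36.4 in MC010. Tfrc was most like Nup50 (0.991), a nuclear pore protein, Nme1 (0.982) and Srsf3 (0.977), a splicing factor.

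The wider iron genes were described by 5 lists with 70 genes, of which the table held 65 and the filter kept 60. Between the labels 8 were called higher and 4 lower, or 20% of those tested, where 22.5% of all genes were called in either direction. Among 7 tested genes of iron sensing and hepcidin control, 2 were higher and 0 lower by edgeR and by DESeq2, with 3 lower at an unadjusted p under 0.05. Of all genes, 13.7% were called higher and 8.72% lower by edgeR, and no share is given for DESeq2 or the unadjusted p. The higher genes were Bmp6, the signal that raises hepcidin in the liver, at 4.34 ± 0.86 on the log2 scale (adjusted p = 0.00562, edgeR), and Hfe, at 1.28 ± 0.37 (adjusted p = 0.0269). Bmp6 was mostly a feature of 1 line, with a mean of 35.5 CPM in MC011, 4.47 in MC010, 0.618 in MC654 and 1.35 in MC659. Without MC654 or MC659, the adjusted p of Bmp6 was 0.0906 and 0.0602, and in limma-voom with a random term for the line it was 0.119. Hfe, low in all lines at 0.553 to 2.42 CPM, lost its call with MC010 replicate 1 (0.0653), MC010 replicate 2 (0.0607), MC654 replicate 1 (0.0747) or MC654 replicate 2 (0.0611) left out, and with each line but MC011 left out (0.0566 to 0.186), and with the random term (0.246).

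Heme genes moved in both directions, with 4 of 17 higher and 3 lower, where 13.7% and 8.72% of all genes were. Hmox1, which frees iron from heme, was lower in the IRF8 KO lines, at 22.2 and 29.6 CPM in MC010 and MC011 against 42.3 and 42.3 CPM in MC654 and MC659 (log2 fold change -0.71 ± 0.12, SE, adjusted p = 0.00267, edgeR). Lrp1, which takes up heme bound to hemopexin among many other ligands, was lower at -1.21 ± 0.11 (adjusted p = 1.44e-04), and Cpox, an enzyme of heme synthesis, at -0.67 ± 0.14 (adjusted p = 0.00760). Flvcr2, a heme and choline carrier, was higher at 1.98 ± 0.55 (adjusted p = 0.0230), from levels of at most 0.647 CPM, and Slc46a1, a folate and heme carrier, at 0.77 ± 0.21 (adjusted p = 0.0217). The remaining higher genes, named after their values were seen, were Alas1 and Slc48a1. Alas1 stood at 0.64 ± 0.083 (adjusted p = 7.27e-04, edgeR) and Slc48a1 at 0.63 ± 0.063 (adjusted p = 2.15e-04, edgeR). In both, every IRF8 KO library lay above every WT library, and fits with a library or line left out are not given for them. Lrp1 and Hmox1 were called with each library left out. Flvcr2 lost its call in 5 of 8 such cases, with MC011 replicate 1 (0.0520), MC011 replicate 2 (0.0504), MC654 replicate 1 (0.0517), MC654 replicate 2 (0.0586) or MC659 replicate 2 (0.0614) left out, and with each line but MC010 left out (0.129 to 0.156). Slc46a1 lost it in 4, with MC010 replicate 1 (0.0544), MC010 replicate 2 (0.0574), MC659 replicate 1 (0.0556) or MC659 replicate 2 (0.0607) left out, and with each line but MC011 left out (0.0546 to 0.173). With a random term for the line, both lost their calls (adjusted p 0.416 for Flvcr2 and 0.156 for Slc46a1, limma-voom). Without MC010, Hmox1 stood at -0.53 and Cpox at -0.49, both under the fold threshold, as Cpox was without MC010 replicate 2 (-0.5875), and without MC659 the adjusted p of Cpox was 0.102.

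Of 18 genes of mitochondrial iron and iron-sulfur clusters, 1 was higher and 1 lower, where 13.7% and 8.72% of all genes were. Slc25a37, or mitoferrin 1, which carries iron into mitochondria, had 118 and 124 CPM in MC010 and MC011 against 230 and 212 in MC654 and MC659 (log2 fold change -0.87 ± 0.058, SE, adjusted p = 3.08e-05, edgeR), and was called with each library or line left out. Abcb10, a mitochondrial transporter that binds mitoferrin 1, moved the other way, at 57.1 and 119 CPM against 35.5 and 32.0 CPM (1.38 ± 0.27, adjusted p = 0.00554). Without MC654 or MC659, its adjusted p was 0.0651 and 0.0906. Among 11 genes of ferritin turnover and endosomal recycling, 1 was called higher and 0 lower, where 13.7% and 8.72% of all genes were. It was Myo5b, a motor of recycling endosomes (5.13 ± 1.28, adjusted p = 0.0148, edgeR), with 17.5 CPM in MC011 and 1.34 CPM in MC010. Without MC654 or MC659, its adjusted p was 0.0577 and 0.123, and with a random term for the line it was 0.196 (limma-voom). Of 13 metalloreductases and other iron carriers, 7 were tested and 0 called by edgeR, where 22.5% of all genes were called in either direction. At an unadjusted p under 0.05, 1 was higher, and 1 was called higher by DESeq2, both without a share of all genes here. That gene was Slc22a17, a receptor for lipocalin, named after its values were seen, at 2.16 ± 0.79 on the log2 scale (adjusted p = 0.0631, edgeR). Its level was high in 1 line only, at 14.0 CPM in MC010 against 1.56 in MC011, 1.42 in MC654 and 2.06 in MC659, and the label groups overlapped. From that list, Lcn2, which binds iron in complex with siderophores, was under the filter and was picked out after its values were seen. It had 518 and 357 counts in MC011, 5 and 3 in MC010 and 0 in all 4 WT libraries. Steap4 of the same list, also under the filter and picked out after its values were seen, was likewise high in MC011 only. Its counts were 474 and 360 in MC011, 7 and 5 in MC010 and 2 to 5 in the WT libraries.

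**Figure D5:**
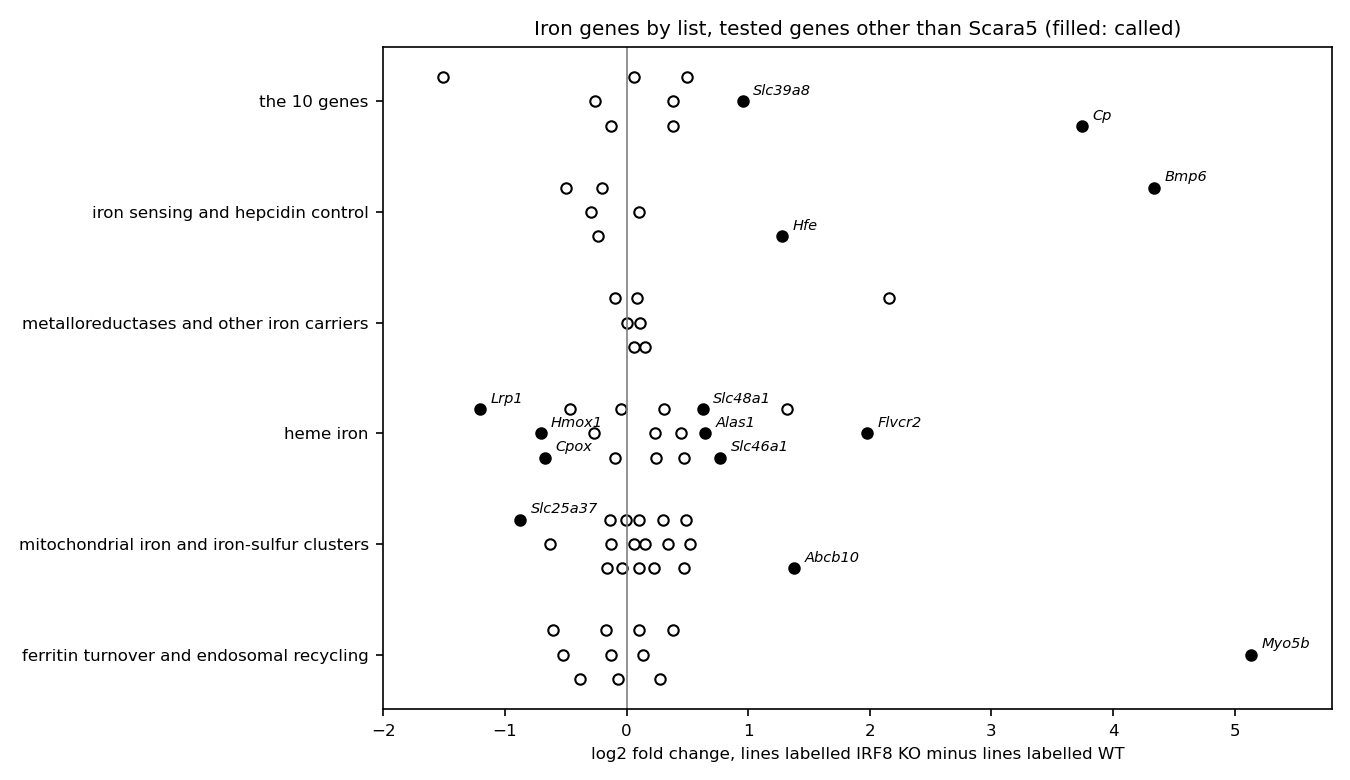
Log2 fold change between the labels for each tested gene of the 10 described here and of 5 other iron lists, Scara5 left out, with filled points and names for called genes. The called genes lie on both sides of 0 for heme and mitochondrial iron. Over all lists drawn, they run from -1.21 for Lrp1 to 5.13 for Myo5b.

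RefSeq promoter windows (GRCm38.p6, 250 bases before to 50 after a start) were at hand for 6 of the 10 genes: Cp, Fth1, Ftl1, Ncoa4, Slc39a8 and Tfrc. On either strand, the interferon-stimulated response core GAAANNGAAA was found in 1 window of Ncoa4 and in 3.44% of all 32851 windows. The related composite GGAANNGAAA, which IRF8 can bind with an ETS partner, was found in none of the windows of these 6 genes and in 2.72% of all. The antioxidant response letters TGACNNNGC were found in 1 window each of Ncoa4 and Slc39a8 and in 12.4% of all.

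Some limits bear on single genes. Cp overlaps Hps3, Slc11a2 overlaps Gm5475 and Ftl1 overlaps Gm10252, each on the other strand. Ftl1 also overlaps the miRNA gene Gm22133 on its own strand, Slc39a8 overlaps 4933401H06Rik on the other strand and Gm43428 and Gm43429 on its own, and the strand option of the counting was not given in the sources used here. The 5 epithelial markers in the table, with Krt8 and Krt18 making up most of the sum, came to 565 and 531 CPM in MC010, the line with the most Fth1 and Slc39a8, to 34.1 and 35.7 CPM in MC011 and to 114 to 129 CPM in the WT libraries. The other 3 (Epcam, Krt14 and Cdh1) ran the other way between the IRF8 KO lines, at a summed 0.481 and 0.313 CPM in MC010 against 2.34 and 2.05 CPM in MC011. The part of these markers in the differences between lines was not tested. Counts of whole genes measure RNA only and do not show ferritin or ferroportin protein, or iron.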

How the data were processed

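RNA from 4 lines was sequenced in 8 libraries (stranded mRNA-seq). Per the labels and methods, the authors used STAR to align reads to mm10 (GRCm38.p6), HTSeq to count them on genes and DESeq2 to compare genotypes. The submitters' processing notes name STAR 2.7.3a and HTSeq 0.11.2, and the published methods name other versions. The deposited table holds a raw count per gene and library, which was used here, and a signal, the count divided by 1 size factor per library, which was not tested. It also holds the authors' own fold changes and p-values, which were not used.

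Genes passed filterByExpr by label and counts were scaled by TMM in edgeR 4.0.16 (R 4.3.3). The robust quasi-likelihood test compared 4 libraries with 4, with no other term. A second fit had 1 group per line. Standard errors came from the log2 fold change and the F statistic, and intervals from the t distribution with the fit's degrees of freedom. Log2 CPM used a prior count of 2. The alternatives were DESeq2 1.42.0, no filter, upper-quartile scaling, DESeq2's size factors, sums per line, limma-voom (limma 3.58.1) with a random term for the line, a block for the library number, each library or line left out, and no fold threshold. Made-up counts were also run through the code, which says nothing about the spread between the tumors of a label. No result above rests on that run. The chi-square between the 2 libraries of a line, over its degrees of freedom, was 7.60 to 13.1, so they differed by more than sampling noise. Each counted as a library of its own in the main fit, which does not make the 2 libraries of a line independent. Nothing says that they came from separate cultures, so line-level p-values measure only the spread between libraries, which may be technical. The floor of 3 counts is 0.0262 to 0.0408 CPM, and floors and counting intervals cover counting error only. Of the genes in the table, 18736 had an entry in GENCODE M21, 17726 with the same start and end. Coordinates of genes are those of the table.

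The 10 genes and all lists were chosen with earlier results of these data known. The genes named were the 10, up to 5 called genes of each other list by size of the fold change, Irf8, the ferritin copies, and for Cp, Scara5, Slc40a1 and Tfrc the 3 most alike genes. The alternatives for the other iron lists were added after the data had been seen.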

Additional observations from a re-analysis of the deposited data

Results flagged for a closer look

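The log2 differences of MC010 from MC011, both labelled IRF8 KO, passed the test for 3 of the 10 genes: 0.749 for Slc39a8, 3.10 for Slc40a1 and 0.816 for Fth1. Of all genes, 31.6% were called in this comparison, so the share among the 10 is near the background. For Slc40a1 and Fth1, the label comparison therefore averages 2 lines that differ, and both genes were called or not called in it depending on which line was left out. Scara5 in MC659 replicate 2 stood apart from the other WT libraries at 0.0111 CPM, which is 1 count against 0. This was the only one of 20 groups of 4 libraries in which a library stood far from the rest. The rule, Dixon's ratio, always flags a single count where all other values are 0. The 4 libraries of a group are also not independent, so no chance rate is given.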

How the results depend on the processing

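In the label comparison, 3 of the 10 genes were called in each scaling and filter alternative, in DESeq2 and in the fit with a replicate block (3 genes). The count was 0 in the sums per line, 2 with a random term for the line and 5 with no threshold on the fold change. It was 2 to 3 with each library left out. With a line left out, it was 3 without MC010, 4 without MC011, 2 without MC654 and 2 without MC659. Shares of all genes are given here only for the main fit, the sums per line and the fit with no fold threshold. The other counts are therefore not read as results about the 10 genes. Without MC010, Slc40a1 was called lower (-3.80) and Slc39a8 was not called. Without MC011, Fth1 was called higher (0.73). The sums have 4 samples in place of 8. In the fit with the random term, the estimated correlation within a line was 0.828, and the cause of the lower count was not tested. Without MC010, the log2 fold change of Fth1 was -0.10 and that of Ftl1 -0.0078, and without MC659 that of Ftl1 was -0.0051, none of them called. With no fold threshold, 8 genes were called between MC010 and MC011, 4 between MC654 and MC659, 10 between MC010 and the WT lines and 6 between MC011 and the WT lines, where 63%, 14.5%, 70.6% and 65.3% of all genes were. With the fold threshold kept and each library left out, the counts were 3 to 3, 1 to 3, 4 to 5 and 3 to 4. No share of all genes is given for these fits. The 3 called between MC654 and MC659 (Slc39a8, Slc40a1 and Cp) appeared without MC654 replicate 2. The additional call between MC010 and the WT lines was Slc40a1, without MC010 replicate 2, and that between MC011 and the WT lines was Slc39a8, without MC011 replicate 2 or MC654 replicate 2. The other iron genes called numbered 12 in the main fit, where 22.5% of all genes were called, and 0 in the sums per line, where 0 were. They numbered 7 with a random term for the line, 16 in DESeq2, 15 without MC010, 18 without MC011, 4 without MC654 and 6 without MC659. These last fits have no share of all genes beside them here, so their counts are not read as results about iron genes. With no fold threshold 21 were called, where 20.8% of all genes were higher and 16.7% lower. Library numbers did not pair the lines (correlations of deviations from -0.0273 to 0.0552 over 6 pairs of lines), and the block changed none of the counts of called genes among the 10. With 2 tumors per label, a difference between labels cannot be told apart from one between tumors.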
